A study of Mus musculus with 30 samples.

Results

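The Slc25 genes described here are those whose symbol is Slc25a followed by a number, leaving out Slc25a1, Slc25a20 and Slc25a44, and they numbered 44 of the 21652 genes in the deposited tables. Male C57BL/6J mice aged 7 to 8 weeks gave brown adipose tissue (BAT) and inguinal white adipose tissue (iWAT, a fat pad under the skin), from which poly(A) RNA was sequenced. Each tissue gave 5 libraries from the 22 °C group and 5 from each of 2 groups held at 6 °C, for 6 h or for 24 h, 30 in all. The 22 °C libraries are called control libraries and those from 6 °C cold libraries, by replicate number. The housing notes name a room of 24 ± 2 °C, whereas the control label is 22 °C, and the labels name no transgene or deletion in any group. The labels number the replicates of a group from 1 to 5 without saying that they are separate animals, so p-values measure the spread between these libraries.

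The products of these genes are small membrane proteins with a shared fold that carry nucleotides, phosphate, metabolites, amino acids and cofactors across the mitochondrial inner membrane, with a few members placed in the peroxisome or the outer mitochondrial membrane. Brown adipocytes burn fuel in abundant mitochondria and make heat through the uncoupling protein Ucp1, itself a member of the same protein family under another symbol. Cold brings some adipocytes of iWAT to express genes of this kind, and such cells are called beige.

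Library totals were 25345889 to 40986043 assigned counts. Adipocyte markers were abundant in every library. The summed level of 8 such genes was 19650 to 25650 CPM (counts scaled to a common library size with TMM factors) in iWAT at 22 °C, 25570 to 31940 after 6 h and 23540 to 28500 after 24 h. The medians were 20740, 28220 and 27960 CPM, so the sum moved upward in the cold there. Fabp4 was its largest part, with medians of 12500, 18400 and 18800 CPM. At 24 h the medians of Plin1, Cidec, Retn and Lipe also stood above those at 22 °C. Those of Adipoq (2260 to 2050 CPM), Lep (451 to 177) and Pparg (231 to 181) stood below. In BAT it was 14420 to 14890, 14290 to 16160 and 16660 to 19910 CPM. The summed level of 8 brown and beige markers was 134 to 1274 CPM in iWAT at 22 °C, 776 to 6050 after 6 h and 3123 to 5273 after 24 h. In BAT this summed level was 13270 to 16840 CPM at 22 °C, 19750 to 27410 after 6 h and 19550 to 22730 after 24 h. That of 8 progenitor and fibroblast markers was 2457 to 4540 CPM in iWAT at 22 °C, 1596 to 2736 after 6 h and 1417 to 2263 after 24 h. Macrophage markers (8 genes) summed to 302 to 788 CPM in iWAT at 22 °C, 275 to 554 after 6 h and 344 to 552 after 24 h, and 8 endothelial markers to 333 to 622, 302 to 398 and 341 to 431 CPM. Skeletal muscle markers (10 genes) were uneven. Their sum was 3709 CPM in iWAT 22 °C replicate 2 and 3.01 to 7.91 CPM in the other 4 libraries of that group, and in BAT it was 283 to 9503 CPM at 22 °C, 10.1 to 1718 after 6 h and 2.19 to 4934 after 24 h. The part of these cell types in the results was not tested beyond a fit with a muscle covariate, chosen after seeing the data. That covariate was the mean log2-scaled CPM of the 10 muscle markers, and not their sum. In bulk tissue, fewer cells of a type and less RNA per cell cannot be told apart.

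Per gene length, the ADP/ATP carrier Slc25a5 was the most abundant member in all 6 groups, with 22.6% to 26.2% of the summed FPKM of the 44 genes (counts scaled by gene length and library total, as deposited). At 22 °C it stood at 192 ± 20.2 FPKM in iWAT and 274 ± 19.2 in BAT (mean ± SD, n = 5, as for all levels below). Among the 44 it was followed in iWAT by Slc25a4 (12.3% of the sum), the dicarboxylate carrier Slc25a10 (10.6%) and the phosphate carrier Slc25a3 (9.48%). The order in BAT was Slc25a51, a carrier of NAD+ (12.8%), Slc25a4 (11.9%) and the glutathione carrier Slc25a39 (7.92%). Slc25a10 stood at 87.6 ± 9.91 FPKM in iWAT and 5.30 ± 1.28 in BAT. These ranks hold among the 44 genes only, since Slc25a1, left out by the choice of symbols, stood at 257 ± 57.0 FPKM in iWAT at 22 °C. The summed FPKM of the 44 genes in iWAT was 836 ± 62.3 for the controls, 1072 ± 113 for 6 h of cold and 1120 ± 76.2 for 24 h. In BAT it was 1209 ± 21.3, 1321 ± 46.9 and 1490 ± 65.1. At the other end, Slc25a2, Slc25a41, Slc25a43 and Slc25a54 had 117, 7, 64 and 5 counts over the 30 libraries and passed no filter on low counts.

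**Figure D1:**
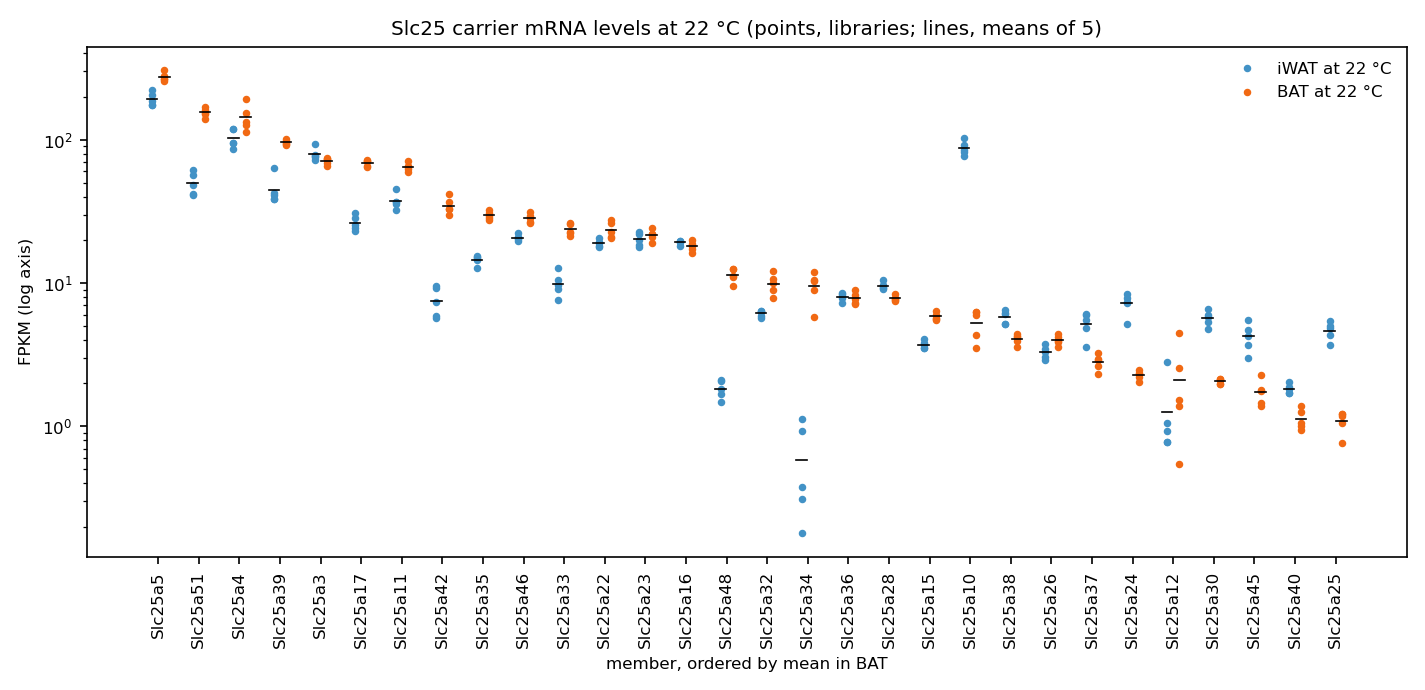
FPKM (log axis) of members with a mean of at least 1 FPKM over the 30 libraries, in the 5 iWAT libraries (blue) and 5 BAT libraries (orange) at 22 °C; lines are means. Slc25a5 is the highest in both tissues, Slc25a10 lies far higher in iWAT, and Slc25a34, Slc25a48, Slc25a42 and Slc25a51 lie far higher in BAT.

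Between the tissues at 22 °C, BAT held more mRNA of most carriers of cofactors and less of the dicarboxylate carrier. Of the 40 members tested 23 were higher in BAT and 9 lower by edgeR's quasi-likelihood test (adjusted p under 0.05 over all genes), 80% against a background of 66.9% of all 14089 genes tested (32.4% higher, 34.5% lower). In 27 of them the libraries of the tissues did not overlap as well (52.1% of all genes). The median log2 difference (BAT minus iWAT) was 0.64 for the members and -0.04 for all genes. All 9 tested carriers of cofactors and nucleotides were higher in BAT. Among members whose mean reached 1 CPM in either tissue, the widest gaps upward were those of Slc25a34 (4.62 ± 0.48, ± approximate SE), Slc25a48 (3.23 ± 0.20), Slc25a42 (2.79 ± 0.24) and Slc25a51 (2.23 ± 0.16). Downward they were Slc25a10 (-3.45 ± 0.26), Slc25a25 (-1.50 ± 0.25), Slc25a24 (-1.06 ± 0.13) and Slc25a30 (-0.85 ± 0.11), each with no overlap between the 5 and 5 libraries. Slc25a21, at means under 1 CPM in both tissues, was also lower in BAT (-1.99 ± 0.82). The split depended on scaling. On the deposited FPKM, which carry no correction for RNA composition, limma gave 17 higher and 17 lower, the median of all genes moved to -0.34, and Slc25a3, Slc25a16, Slc25a28, Slc25a36 and Slc25a38 changed sign. Of these Slc25a3, Slc25a28 and Slc25a38 were called lower in BAT on that scale.

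In cold iWAT the carriers moved mostly upward. After 6 h 16 of 38 members tested rose and 3 fell, 50% against a background of 23%, and after 24 h 18 rose and 2 fell, 52.6% against 23%. Of all 13689 genes tested 12.9% rose and 10.1% fell at 6 h, and 12.8% and 10.1% did at 24 h. The called members with no overlap between control and cold libraries numbered 8 at 6 h (8.09% of all genes) and 12 at 24 h (14.1%). The median log2 fold change of the members was 0.34 after 6 h and 0.23 after 24 h, with -0.03 and -0.04 for all genes. Both comparisons use the same 22 °C libraries. Without iWAT 22 °C replicate 2, the library rich in muscle markers, 12 members were called at 6 h (11 higher, 1 lower), and without 24 h replicate 2 the later count was 13, all higher. The counts over all genes fell too, from 3148 to 1585 at 6 h and from 3145 to 2313 at 24 h. With the muscle covariate 12 members were called at 6 h, and Slc25a3, Slc25a4, Slc25a12, Slc25a16, Slc25a33, Slc25a42 and Slc25a45 lost their calls. At 24 h Slc25a25 and Slc25a48 were among those that lost theirs. In iWAT the muscle markers were high in 22 °C replicate 2 alone (sum 3709 CPM, other libraries 1.84 to 7.91). This fit therefore cannot be told apart from an effect of that 1 library. On the deposited FPKM the splits were 11 higher and 7 lower at 6 h, where the median of all genes moved to -0.15, and 13 and 4 at 24 h, where it moved to -0.12. Slc25a3, Slc25a4, Slc25a16, Slc25a33 and Slc25a42 at 6 h and Slc25a4, Slc25a25 and Slc25a32 at 24 h were among those not called on that scale.

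In cold BAT Slc25a34 and Slc25a17 were among the carriers that rose, and Slc25a3 and Slc25a23 were among those that fell at 24 h. The number of calls was not compared between the tissues by a test. After 6 h 8 of 39 members tested rose and 1 fell, 23.1%, which is near the background of 22.7%. After 24 h 11 rose and 3 fell, 35.9% against 23.1%. Of all 13090 genes tested 12.5% rose and 10.2% fell at 6 h, and 12.8% and 10.4% did at 24 h. The called members with no overlap numbered 5 (14.6% of all genes) and 10 (16.3%). The median log2 fold changes were 0.13 and 0.14, with -0.01 for all genes at both times. The split at 6 h was 7 and 2 with upper-quartile factors and 6 and 4 on the deposited FPKM, where Slc25a37 and Slc25a51 were not called. With the muscle covariate Slc25a12, Slc25a22 and Slc25a51 lost their calls at 6 h and Slc25a22 its call at 24 h. Slc25a34, Slc25a17, Slc25a46, Slc25a22 and Slc25a51 rose in all 4 comparisons of cold with 22 °C.

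**Figure D2:**
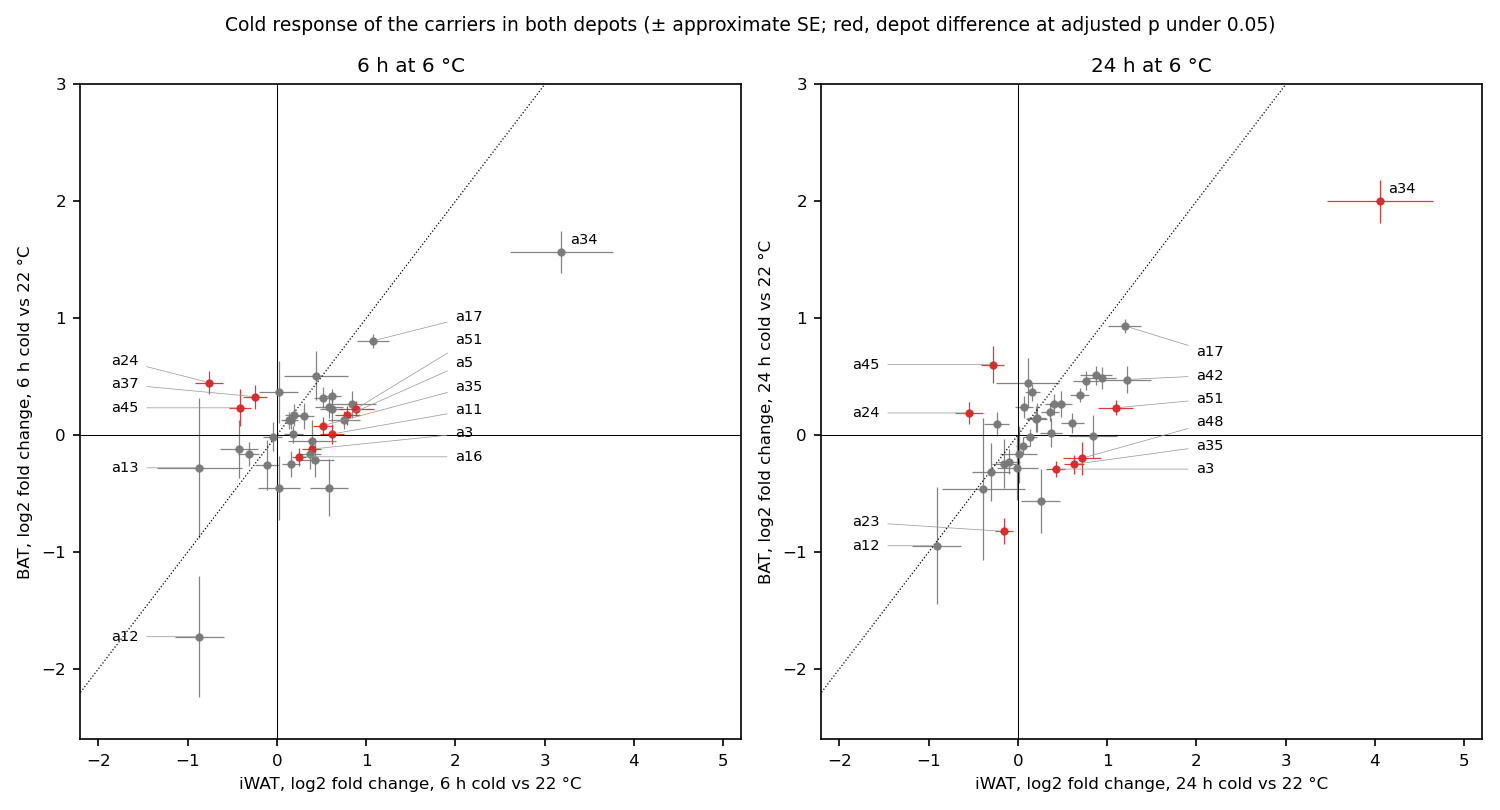
Log2 fold change against 22 °C in iWAT (x axis) and in BAT (y axis) after 6 h (left) and 24 h (right) for 36 members tested in both tissues; bars are approximate SE, the dotted line marks equal change, and red points are members whose response differed between tissues. Slc25a34 lies farthest from 0 (3.19 and 1.56 at 6 h), most other points lie to the right of 0 and near 0 on the y axis, and Slc25a24 lies to the upper left.

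Promoter sequence is shown for Slc25a34 and Slc25a17, which had the largest rises after 6 h in both tissues among called members whose group mean reached 1 CPM, and for Slc25a25, whose window was picked after a motif match was seen in it. Each window is the 250 bases before the annotated start, from RefSeq on GRCm38.p6 and on the gene's strand, all 3 on the minus strand. The counts are on GRCm39, so these coordinates belong to the sequence only. Capitals mark the match to the cAMP response element TGACGTCA, from 150 to 143 bases before the start of Slc25a25.
Slc25a34, chr4:141623835-141624084: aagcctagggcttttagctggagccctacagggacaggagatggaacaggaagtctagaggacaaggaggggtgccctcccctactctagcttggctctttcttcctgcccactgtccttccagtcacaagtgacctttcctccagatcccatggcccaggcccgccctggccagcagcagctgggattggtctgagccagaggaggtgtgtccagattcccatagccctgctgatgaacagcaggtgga
Slc25a17, chr15:81360766-81361015: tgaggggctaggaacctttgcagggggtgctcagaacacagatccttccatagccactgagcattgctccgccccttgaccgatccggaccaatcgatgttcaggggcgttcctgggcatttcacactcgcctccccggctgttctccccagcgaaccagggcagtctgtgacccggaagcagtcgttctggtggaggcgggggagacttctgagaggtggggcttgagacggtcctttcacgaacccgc
Slc25a25, chr2:32424067-32424316: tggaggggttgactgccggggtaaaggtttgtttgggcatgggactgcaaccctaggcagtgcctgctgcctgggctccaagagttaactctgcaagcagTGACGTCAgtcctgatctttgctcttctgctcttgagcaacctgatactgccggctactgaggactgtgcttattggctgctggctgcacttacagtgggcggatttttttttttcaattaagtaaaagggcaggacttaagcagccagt
RefSeq had windows for 34 of the 44 members, 44 windows in all, and 5 motifs were searched on both strands of the 32851 windows of this length. TGACGTCA was in 1.55% of all windows and in 2 of the members', those of Slc25a25 and Slc25a36. The nuclear respiratory factor 1 element (GCGCA, any base, GCGC) was in 3.74% of all windows and in 2 of the members' (Slc25a3 and Slc25a31), and the GC box GGGGCGGGG was in 10.4% of all and in 4 of the members' (Slc25a22, Slc25a31, Slc25a39 and Slc25a40). The estrogen-related receptor element TNAAGGTCA (1.14% of all windows) and the direct repeat 1 (AGGTCA, any base, AGGTCA, 0.0335%) were in none of the members' windows. A match is a run of letters and not a shown binding site.

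The ADP/ATP carriers exchange the ADP of the cytosol for the ATP made in mitochondria. Slc25a5 (ENSMUSG00000016319) read, in replicate order, 216, 222, 258, 307 and 217 CPM in iWAT at 22 °C, 543, 387, 302, 442 and 468 after 6 h and 483, 441, 376, 371 and 423 after 24 h. Replicate 3 at 6 h lay within the control range, and all 24 h libraries lay above it. The log2 fold changes were 0.79 ± 0.14 (adjusted p = 0.00294) and 0.76 ± 0.14 (adjusted p = 0.00215). The BAT libraries held 537, 486, 509, 573 and 515 CPM at 22 °C, 709.9, 532, 569, 629 and 535 after 6 h and 836, 711, 748, 679.6 and 683 after 24 h. All 24 h values stood above all 22 °C values there, and the 6 h values overlapped them. Slc25a5 rose in BAT by 0.46 ± 0.08 at 24 h (adjusted p = 0.000544), and the 6 h value of 0.17 ± 0.08 was not called (adjusted p = 0.143). Processed copies of this gene lie elsewhere in the genome, which makes its counts uncertain.

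Slc25a4, the ADP/ATP carrier typical of muscle and heart, moved less. Its iWAT libraries gave 166, 202, 156, 235 and 168 CPM at 22 °C, 274, 241, 196, 240.0 and 271 after 6 h and 255, 272, 209.7, 219.7 and 260.0 after 24 h, with overlap between control and cold. Changes on the log2 scale were 0.38 ± 0.12 at 6 h (adjusted p = 0.0362) and 0.37 ± 0.12 at 24 h (adjusted p = 0.0356). The 6 h call was lost without any 1 of 8 of the 10 libraries (adjusted p = 0.0542 to 0.0931), and held on omission of control library 4 or cold library 3. The 24 h call was lost on omission of control library 1, 3 or 5 or cold library 1, 2 or 5 (adjusted p = 0.0728 to 0.0919). In BAT the levels were 372, 310.0, 343, 415 and 535 CPM at 22 °C, 414, 345, 331, 362 and 333 after 6 h and 431, 391, 428, 319.6 and 458 after 24 h. They overlapped, with log2 values of -0.16 ± 0.13 and 0.02 ± 0.13 that were not called. The highest BAT library at 22 °C, replicate 5, was also the highest in muscle markers (9503 CPM).

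Slc25a3 brings phosphate into the matrix for ATP synthesis, and at 24 h it rose in iWAT and fell in BAT. In iWAT its libraries held 325, 302, 309.9, 436 and 323 CPM at 22 °C, 488, 465, 392, 439.9 and 471 after 6 h and 467, 519, 422, 451 and 441 after 24 h. Replicate 4 at 22 °C stood within the cold range, and the other 4 controls stood below it. The rises were 0.39 ± 0.10 (adjusted p = 0.0166) and 0.42 ± 0.10 (adjusted p = 0.00918) on the log2 scale. The 6 h call was lost without 22 °C replicate 2 (adjusted p = 0.0510). BAT held 484, 422, 440.4, 465 and 489 CPM at 22 °C, 498, 404, 416, 423 and 398 after 6 h and 409.6, 355, 384, 365 and 389.8 after 24 h. All 5 BAT libraries at 24 h lay below all 5 at 22 °C, and Slc25a3 fell by 0.29 on the log2 scale (SE 0.07, adjusted p = 0.00465), whereas the 6 h value of -0.12 ± 0.07 was not called.

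Slc25a23, Slc25a24 and Slc25a25 exchange ATP-Mg for phosphate under the control of calcium and so set the size of the adenine nucleotide pool in the matrix. Slc25a23 in BAT went from 132, 136, 135, 146 and 119.6 CPM at 22 °C to 139, 105, 104, 132 and 90.3 after 6 h and 89.2, 75.7, 66.2, 66.3 and 84.6 after 24 h. The 24 h libraries lay below every library of the other 2 groups. The log2 fold change at 24 h was -0.82 ± 0.11 (adjusted p = 6.50e-05), the largest fall of a member in BAT at that time among those called. In iWAT Slc25a23 read 73.0, 76.7, 92.7, 79.3 and 88.2 CPM at 22 °C, 115, 88.7, 87.1, 88.0 and 86.8 after 6 h and 89.2, 67.1, 76.5, 69.4 and 70.2 after 24 h, with overlapping ranges and no call (0.16 ± 0.10 and -0.16 ± 0.10).

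Slc25a24 fell in cold iWAT and rose in BAT at 6 h. Its iWAT libraries held 21.6, 19.6, 19.1, 21.2 and 13.3 CPM at 22 °C, 9.48, 12.1, 13.2, 11.4 and 10.7 after 6 h and 10.6, 10.6, 17.4, 13.9 and 13.1 after 24 h. The 6 h libraries all lay below the controls, by a narrow margin at 22 °C replicate 5, and the 24 h libraries overlapped them. The log2 fold changes were -0.76 ± 0.16 (adjusted p = 0.00549) and -0.55 ± 0.15 (adjusted p = 0.0195). The second call was lost on omission of control library 1 or cold library 1 or 2 (adjusted p = 0.0532 to 0.0546). In BAT the levels were 8.21, 9.13, 9.83, 8.60 and 9.53 CPM at 22 °C, 11.7, 13.6, 12.3, 12.7 and 12.1 after 6 h and 10.2, 11.1, 12.3, 9.88 and 8.87 after 24 h. All 6 h values stood above all 22 °C values (0.45 ± 0.10, adjusted p = 0.00281), and the 24 h value of 0.19 ± 0.10 was not called. The sum of the progenitor and fibroblast markers was also lower in cold iWAT than at 22 °C, and its part in this fall was not tested.

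Slc25a25 rose in iWAT at 24 h from 28.0 ± 3.93 to 50.9 ± 26.1 CPM (log2 0.84 ± 0.27, adjusted p = 0.0357). The 24 h libraries differed widely, with 26.0, 87.7, 25.2, 57.2 and 58.4 CPM, and replicates 1 and 3 lay within the control range. The call was lost on omission of control library 1, 2 or 5 or cold library 2, 4 or 5 (adjusted p = 0.0669 to 0.122). At 6 h the value was 0.39 ± 0.27, and in BAT it was -0.05 ± 0.18 and -0.01 ± 0.18, none of them called. The testis-type ADP/ATP carrier Slc25a31 had 615 counts in all. In the fits of a single tissue it was tested in BAT only, with no call.

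Among carriers of dicarboxylates and oxo acids, Slc25a11, the oxoglutarate carrier of the malate-aspartate shuttle, rose in iWAT from 60.7 ± 11.4 to 94.4 ± 16.1 CPM at 6 h and 93.7 ± 12.3 at 24 h. Its log2 fold changes were 0.62 ± 0.14 (adjusted p = 0.00730) and 0.61 ± 0.13 (adjusted p = 0.00516), with no overlap at 24 h. In BAT it stood at 159 ± 9.68, 162 ± 21.6 and 174 ± 18.8 CPM, and neither time was called. Slc25a10, which exchanges malate and succinate for phosphate, averaged 232 ± 26.7 CPM in the iWAT controls, 353 ± 129 in the 6 h group and 237 ± 65.3 in the 24 h group. Replicate 1 at 6 h held 580 CPM and the other 4 held 258 to 327, and the log2 value of 0.58 ± 0.21 was not called (adjusted p = 0.0516). No cold value of Slc25a10 in BAT was called (-0.45 ± 0.24 and -0.16 ± 0.24). The oxoadipate carrier Slc25a21 had 197 counts in all, was tested against cold in iWAT but not in BAT, and neither time was called.

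The aspartate/glutamate carrier Slc25a12 works in the malate-aspartate shuttle and is abundant in muscle. In iWAT it read 5.80, 14.9, 4.37, 4.82 and 5.17 CPM at 22 °C, 4.34, 4.02, 3.26, 3.87 and 4.04 after 6 h and 3.40, 3.75, 3.96, 4.22 and 3.50 after 24 h. Replicate 2 at 22 °C, the library with the high muscle sum, was the highest, and the other 4 controls stood narrowly above the cold libraries. Changes on the log2 scale were -0.87 ± 0.27 (adjusted p = 0.0336) and -0.91 ± 0.27 (adjusted p = 0.0257). In BAT the values were 13.2, 4.66, 11.7, 21.4 and 38.7 CPM at 22 °C, 2.52, 11.0, 5.07, 3.73 and 4.96 after 6 h and 4.53, 5.08, 9.35, 8.38 and 19.8 after 24 h. They overlapped and spread widely, with a called log2 value of -1.72 ± 0.52 at 6 h (adjusted p = 0.0233) and an uncalled -0.95 ± 0.50 at 24 h. With the muscle covariate the 6 h values were -0.38 in iWAT (adjusted p = 0.0783) and -0.59 in BAT (adjusted p = 0.202). The iWAT 24 h value was then -0.44 (adjusted p = 0.0430). Without 22 °C replicate 2 the iWAT 6 h call was lost (adjusted p = 0.0727), as it was on omission of control library 1 or cold library 2, 3, 4 or 5 (0.0520 to 0.0625). The iWAT 24 h call was lost without 24 h replicate 1, 2 or 5 (0.0518 to 0.0579) and the BAT 6 h call on omission of control library 5 or cold library 1, 3, 4 or 5 (0.0504 to 0.0833).

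**Figure D3:**
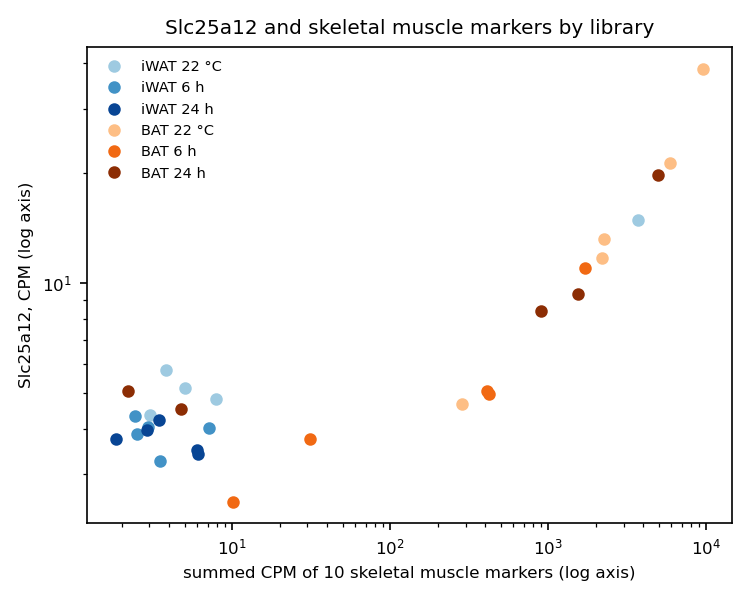
Slc25a12 (CPM, log axis) against the summed CPM of 10 skeletal muscle markers (log axis) in each of the 30 libraries, coloured by group. In iWAT at 22 °C (replicate 2, 3709 CPM) and in each BAT group (22 °C replicate 5, 9503 CPM; 6 h replicate 2, 1718; 24 h replicate 5, 4934) the library with the highest muscle sum of its group also has the highest Slc25a12. In the cold iWAT groups, where the highest sums are 7.17 CPM (6 h replicate 2) and 6.06 CPM (24 h replicate 1), it does not.

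Slc25a22, which imports glutamate, rose in both tissues: in iWAT by 0.52 ± 0.10 at 6 h (adjusted p = 0.00374) and 0.41 ± 0.10 at 24 h, with no overlap at either time, and in BAT by 0.32 ± 0.09 and 0.26 ± 0.09 (adjusted p = 0.0161 and 0.0406). The BAT calls were lost with the muscle covariate (adjusted p = 0.111 and 0.161) and on leaving out 1 library, at 6 h without 6 h replicate 3 (adjusted p = 0.0502) and at 24 h on omission of control library 3, 4 or 5 or cold library 1, 2, 3 or 4 (0.0533 to 0.106). The ornithine carrier Slc25a15 rose in iWAT at 24 h (0.36 ± 0.10, adjusted p = 0.0216). Slc25a18, another glutamate carrier, was called in BAT at 6 h (1.83 ± 0.57, adjusted p = 0.0288) at levels of 0.00 to 0.252 CPM at 22 °C and 0.160 to 1.00 CPM after 6 h, with 1 control library at 0. No cold comparison called Slc25a13, an aspartate/glutamate carrier found at 0.634 ± 0.229 CPM in iWAT and 0.353 ± 0.232 in BAT at 22 °C, Slc25a29, a carrier of basic amino acids (0.44 ± 0.36, 0.11 ± 0.36, 0.51 ± 0.21 and 0.45 ± 0.21 over iWAT and BAT at 6 h and 24 h), or Slc25a38, which imports glycine for heme synthesis (0.19 ± 0.10, 0.07 ± 0.10, 0.17 ± 0.09 and 0.24 ± 0.09).

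Carriers of cofactors and nucleotides mostly rose in cold iWAT: 7 of 9 tested rose at 6 h and 6 at 24 h, and none fell. These are 77.8% and 66.7%, against 12.9% and 12.8% of all genes that rose. The median log2 fold change was 0.58 and 0.48. In BAT 2 of 9 rose at 6 h and 4 at 24 h, and none fell, with medians of 0.23 and 0.23. The share at 6 h, 22.2%, was near the 22.7% of all genes called in either direction and above the 12.5% that rose, and that at 24 h was 44.4% against 12.8%.

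Slc25a17, a carrier of coenzyme A, FAD and NAD+ in the peroxisomal membrane, rose in both tissues. In iWAT it read 49.1, 52.0, 62.4, 73.6 and 52.3 CPM at 22 °C, 109.9, 109, 75.4, 156 and 171 after 6 h and 151, 123, 108, 137 and 153 after 24 h. Every cold library stood above every control. The fold changes were 2.11 and 2.29 (log2 1.08 ± 0.18 and 1.20 ± 0.18, adjusted p = 0.00222 and 0.000731). In BAT the libraries gave 218, 233, 235, 213 and 241 CPM at 22 °C, 418, 412, 415, 370.0 and 397 after 6 h and 474, 440.3, 425, 426 and 437 after 24 h. The 3 groups were tight, and both cold groups lay above all controls. The log2 fold changes there were 0.81 ± 0.06 (adjusted p = 3.99e-07) and 0.94 ± 0.06 (adjusted p = 1.06e-07).

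Slc25a51, which brings NAD+ into mitochondria, gave 173, 194, 241, 284 and 170.1 CPM in iWAT at 22 °C, 269, 399, 273, 596 and 463 after 6 h and 462, 486, 435, 464 and 453 after 24 h. Replicates 1 and 3 at 6 h lay within the control range, and the 24 h libraries were all above it and close to each other. The log2 fold changes were 0.89 ± 0.20 (adjusted p = 0.00739) and 1.10 ± 0.20 (adjusted p = 0.00174). In BAT it stood at 987, 1082, 1027, 881 and 994 CPM at 22 °C, 1126, 1125, 1279.7, 1163 and 1184 after 6 h and 1115, 1227, 1271, 1124 and 1173 after 24 h. All cold BAT libraries lay above the 22 °C ones, at smaller log2 fold changes of 0.23 ± 0.07 and 0.23 ± 0.07 (adjusted p = 0.0188 and 0.0155). The 6 h call in BAT was lost on omission of control library 4 or cold library 3 or 5 (adjusted p = 0.0510 to 0.0734).

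Slc25a42, a carrier of coenzyme A, was 25.6, 32.2, 43.6, 46.5 and 26.4 CPM in iWAT at 22 °C, 31.2, 63.8, 43.3, 102 and 76.6 after 6 h and 112, 65.5, 94.1, 61.6 and 77.4 after 24 h. The 6 h libraries ranged from the control level to above it, while those at 24 h all stood above the controls. Its log2 fold changes were 0.84 ± 0.27 (adjusted p = 0.0359) and 1.22 ± 0.27 (adjusted p = 0.00556). The 6 h call was lost on omission of control library 1, 2 or 5 or cold library 2, 4 or 5 (adjusted p = 0.0588 to 0.103). The BAT libraries held 234, 289, 254, 223 and 209.5 CPM at 22 °C, 244, 277, 342, 326 and 279 after 6 h and 390.4, 304, 398, 280.2 and 333 after 24 h. Overlap remained at both times in BAT, where the 24 h rise of 0.48 ± 0.11 was called (adjusted p = 0.00602) and the 6 h value of 0.27 ± 0.11 was not.

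**Figure D4:**
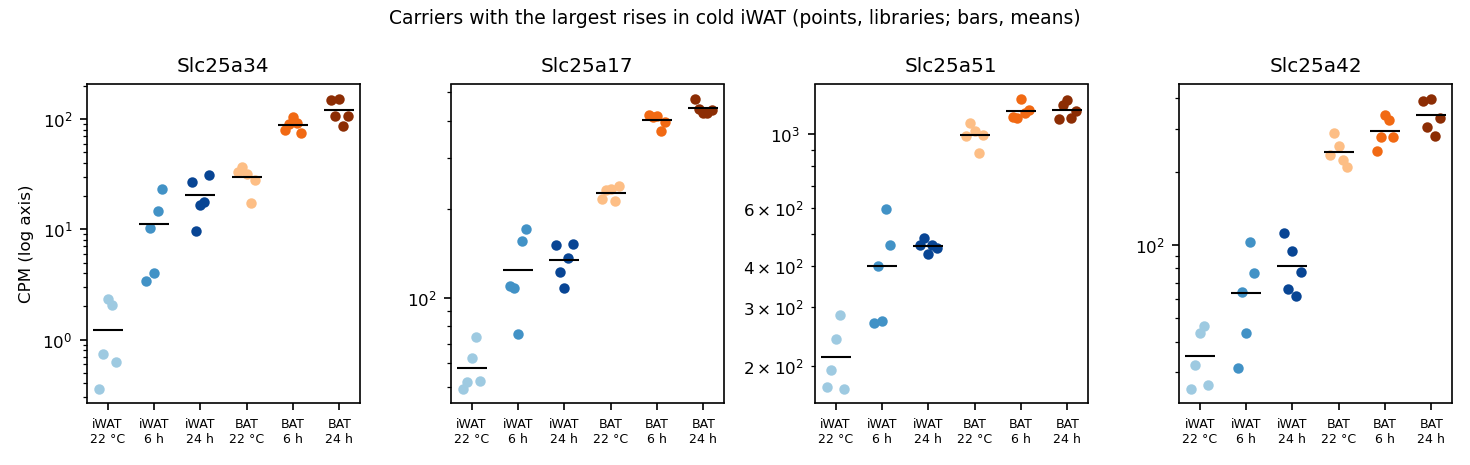
CPM (log axis) of Slc25a34, Slc25a17, Slc25a51 and Slc25a42 in the 5 libraries of each group; points are libraries and bars are means. In iWAT the means step up from 22 °C to 6 h and 24 h (Slc25a34, 1.22, 11.2 and 20.4 CPM), and all BAT groups lie above iWAT at 22 °C.

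Among the other cofactor carriers, Slc25a33, a pyrimidine nucleotide carrier, rose in iWAT by 0.58 ± 0.16 and 0.94 ± 0.16 (adjusted p = 0.0194 and 0.00137) and in BAT by 0.49 ± 0.09 at 24 h (adjusted p = 0.00114). Its 6 h call in iWAT was lost on omission of control library 1 or 2 or cold library 5 (adjusted p = 0.0503 to 0.0562). The folate carrier Slc25a32 rose in iWAT at both times (0.61 ± 0.13 and 0.48 ± 0.13, no overlap at either time), with uncalled BAT values of 0.23 ± 0.11 and 0.27 ± 0.11, and the difference between tissues was not called (adjusted p = 0.149 and 0.489). Slc25a16, linked to coenzyme A, rose in iWAT at 6 h (0.25 ± 0.07, adjusted p = 0.0289) and was not called at 24 h (0.06 ± 0.07). That 6 h call was lost on omission of control library 1 or 2 or cold library 2 or 4 (0.0539 to 0.0806) and the log2 value was 0.01 on the deposited FPKM. Slc25a36, a pyrimidine nucleotide carrier (0.16 ± 0.08 and 0.13 ± 0.08 in iWAT, 0.13 ± 0.08 and -0.02 ± 0.08 in BAT), and Slc25a26, which imports S-adenosylmethionine, were not called in the cold.

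Of the carriers of iron and glutathione, Slc25a39, which imports glutathione, rose most. Its iWAT libraries held 78.9, 85.2, 86.9, 147 and 80.2 CPM at 22 °C, 191, 158, 109.8, 161 and 197 after 6 h and 215, 185, 145, 158 and 185 after 24 h. Replicate 4 at 22 °C stood apart from its group and overlapped the cold libraries. Changes on the log2 scale were 0.75 ± 0.18 (adjusted p = 0.0109) and 0.87 ± 0.18 (adjusted p = 0.00356). In BAT Slc25a39 was 319.9, 320.0, 301, 289.7 and 303 CPM at 22 °C, 383, 296, 363, 340.1 and 312 after 6 h and 528, 410.2, 426, 441 and 407 after 24 h. The 24 h libraries lay above all others in BAT, with a rise of 0.51 ± 0.08 over 22 °C (adjusted p = 0.000226), and the 6 h value of 0.13 ± 0.08 was not called. The iron importers mitoferrin 2, Slc25a28, and mitoferrin 1, Slc25a37, each had 1 cold call in BAT: Slc25a28 rose at 24 h (0.37 ± 0.07, adjusted p = 0.00145, no overlap) and Slc25a37 at 6 h (0.33 ± 0.10, adjusted p = 0.0308). The Slc25a37 call was lost on omission of control library 4 or 5 or cold library 2, 3 or 5 (adjusted p = 0.0635 to 0.104). In iWAT neither was called (Slc25a28 0.13 ± 0.08 and 0.16 ± 0.08, Slc25a37 -0.24 ± 0.14 and -0.24 ± 0.14), and Slc25a40, a relative of Slc25a39, was called in no cold comparison.

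The members named after their likeness to the uncoupling proteins, Slc25a14, Slc25a27 and Slc25a30, did not pass the test in any comparison of cold with 22 °C. Their log2 values in iWAT were -0.42 ± 0.21, 0.03 ± 0.23 and -0.32 ± 0.12 at 6 h and -0.30 ± 0.21, -0.01 ± 0.23 and -0.10 ± 0.12 at 24 h. In BAT they were -0.12 ± 0.25, -0.45 ± 0.28 and -0.16 ± 0.10 at 6 h and -0.31 ± 0.25, -0.28 ± 0.28 and -0.23 ± 0.10 at 24 h, all below 0.

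The largest called rise in iWAT at both times was that of Slc25a34 (ENSMUSG00000040740), a carrier whose substrate is not settled. In iWAT it read 0.357, 0.732, 2.32, 2.07 and 0.630 CPM at 22 °C, 3.39, 10.2, 4.06, 14.8 and 23.5 after 6 h and 26.8, 9.60, 16.7, 17.6 and 31.3 after 24 h. All cold libraries exceeded all controls, and the 6 h libraries spread widely. The fold changes were 9.11 (log2 3.19 ± 0.58, adjusted p = 0.00306) and 16.7 (log2 4.06 ± 0.59, adjusted p = 0.000583). In BAT the levels were 33.4, 37.2, 32.0, 17.5 and 28.3 CPM at 22 °C, 80.6, 90.9, 105, 91.5 and 75.5 after 6 h and 149, 107, 153, 86.8 and 107 after 24 h. Again the cold libraries stood above every control, with fold changes of 2.96 (log2 1.56 ± 0.18, adjusted p = 2.04e-05) and 4.00 (log2 2.00 ± 0.18, adjusted p = 1.99e-06). Slc25a34 and the brown and beige markers were both low in iWAT at 22 °C and higher in the cold. The marker sum was also higher in cold BAT than in BAT at 22 °C. What part those markers had in the rise of Slc25a34 was not tested in either tissue.

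Slc25a35, a close relative of Slc25a34, rose in iWAT from a range of 33.6 to 45.0 CPM to 51.0 to 79.6 CPM at 6 h and 56.3 to 71.0 CPM at 24 h (log2 0.52 ± 0.11 and 0.63 ± 0.11, adjusted p = 0.00755 and 0.00189). In BAT it went from 127 ± 8.60 CPM to 136 ± 15.6 after 6 h, not called, and 108 ± 7.76 after 24 h, a fall of 0.25 on the log2 scale (SE 0.08, adjusted p = 0.0293). That call was lost on omission of control library 1 or 2 or cold library 3, 4 or 5 (adjusted p = 0.0574 to 0.0786).

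Slc25a46, an outer-membrane protein of mitochondrial shape and lipid handling, gave 79.5, 80.7, 87.5, 101 and 82.8 CPM in iWAT at 22 °C, 131, 134, 103, 155 and 151 after 6 h and 149, 125, 138, 146 and 148 after 24 h. BAT held 170.4, 179, 197, 163 and 188 CPM at 22 °C, 243, 222, 235, 212 and 231 after 6 h and 234, 226, 237, 215 and 238 after 24 h. In both tissues every cold library lay above every control. The log2 rises were 0.62 ± 0.10 and 0.69 ± 0.10 in iWAT (adjusted p = 0.00222 and 0.000688) and 0.34 ± 0.06 and 0.34 ± 0.06 in BAT (adjusted p = 0.000891 and 0.000747). Slc25a45, which has been linked to methylated amino acids, fell in iWAT (-0.41 ± 0.12 on the log2 scale at 6 h, adjusted p = 0.0284) and rose in BAT at 24 h (0.60 ± 0.16, adjusted p = 0.00999). The iWAT call was lost on omission of control library 1, 2 or 3 or cold library 2 (0.0524 to 0.0894).

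Slc25a48, a choline carrier, rose in iWAT at 24 h from 4.76 ± 0.925 to 7.91 ± 2.00 CPM (log2 0.72 ± 0.21, adjusted p = 0.0246), a call lost on omission of control library 1, 2 or 5 or cold library 2 or 4 (0.0560 to 0.0659). BAT held 44.5 ± 5.36 CPM at 22 °C and showed no called change (-0.21 ± 0.14 and -0.20 ± 0.14). Slc25a47, a carrier known from liver, was 1.96 ± 0.464 CPM in BAT at 22 °C, 2.57 ± 0.635 after 6 h and 1.35 ± 0.464 after 24 h. It was called against 22 °C in neither tissue (0.02 ± 0.22 and 0.26 ± 0.22 in iWAT, 0.37 ± 0.27 and -0.56 ± 0.27 in BAT). Slc25a53, of unknown substrate, was called in no cold comparison.

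Between 6 h and 24 h the share of members called was near that of all genes in both tissues. This step was not compared between the tissues by a test. None of the 38 members tested in iWAT was called between the times by edgeR, against a background of 0.00731% (1 of 13689 genes). An unadjusted p under 0.05 was found for 5 of them. DESeq2 and limma on FPKM called 0 as well. In BAT 3 of 39 rose and 3 fell, 15.4%, which is near the background of 13% (6.6% higher, 6.45% lower). Of the 6, 2 did not overlap (7.78% of all genes). The rises were Slc25a39 (0.38 ± 0.08, adjusted p = 0.00512, no overlap), Slc25a5 (0.29 ± 0.08, adjusted p = 0.0231) and Slc25a28 (0.24 ± 0.07, adjusted p = 0.0358). The falls were Slc25a47 (-0.93 ± 0.27, adjusted p = 0.0325), Slc25a23 (-0.58 ± 0.11, adjusted p = 0.00317, no overlap) and Slc25a35 (-0.33 ± 0.08, adjusted p = 0.0110). Without BAT 6 h replicate 2 the count was 3, and that over all genes was 1278 against 1708 with all libraries. The Slc25a5 call was lost without 6 h replicate 2 or 5 or 24 h replicate 1 (0.0519 to 0.0628), that of Slc25a28 without 6 h replicate 2 or 3 or 24 h replicate 1, 3 or 4 (0.0529 to 0.0861), and that of Slc25a47 without 6 h replicate 2, 4 or 5 or 24 h replicate 4 or 5 (0.0608 to 0.0741). On the deposited FPKM the split was 5 and 3.

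The cold response differed between the tissues in 10 of 40 members at 6 h and in 9 at 24 h, by the interaction of tissue and temperature in 1 fit of all 30 libraries. Both times share the 22 °C libraries. These counts are 25% against a background of 9.4% and 22.5% against 7.81%. Over all genes 3.38% were above 0 and 6.03% below at 6 h, and 2.96% and 4.85% at 24 h. The difference is BAT minus iWAT, and it was below 0 for 7 of the 10 and for 7 of the 9. The widest difference above 0 at 6 h was that of Slc25a24 (1.20 ± 0.18, adjusted p = 0.000157), followed by Slc25a45 (0.64 ± 0.20) and Slc25a37 (0.56 ± 0.17). Among those below 0 were Slc25a51 (-0.67 ± 0.22), Slc25a5 (-0.63 ± 0.17), Slc25a11 (-0.61 ± 0.17), Slc25a3 (-0.52 ± 0.13), Slc25a35 (-0.44 ± 0.14) and Slc25a16 (-0.44 ± 0.10). At 24 h Slc25a45 (0.89 ± 0.20, adjusted p = 0.00690) and Slc25a24 (0.74 ± 0.18, adjusted p = 0.0133) stood above 0. Slc25a34 (-2.06 ± 0.60, adjusted p = 0.0319), Slc25a48 (-0.92 ± 0.26), Slc25a35 (-0.88 ± 0.14, adjusted p = 0.000633), Slc25a51 (-0.86 ± 0.22), Slc25a3 (-0.71 ± 0.13, adjusted p = 0.00115) and Slc25a23 (-0.67 ± 0.16) were among those below 0.

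**Figure D5:**
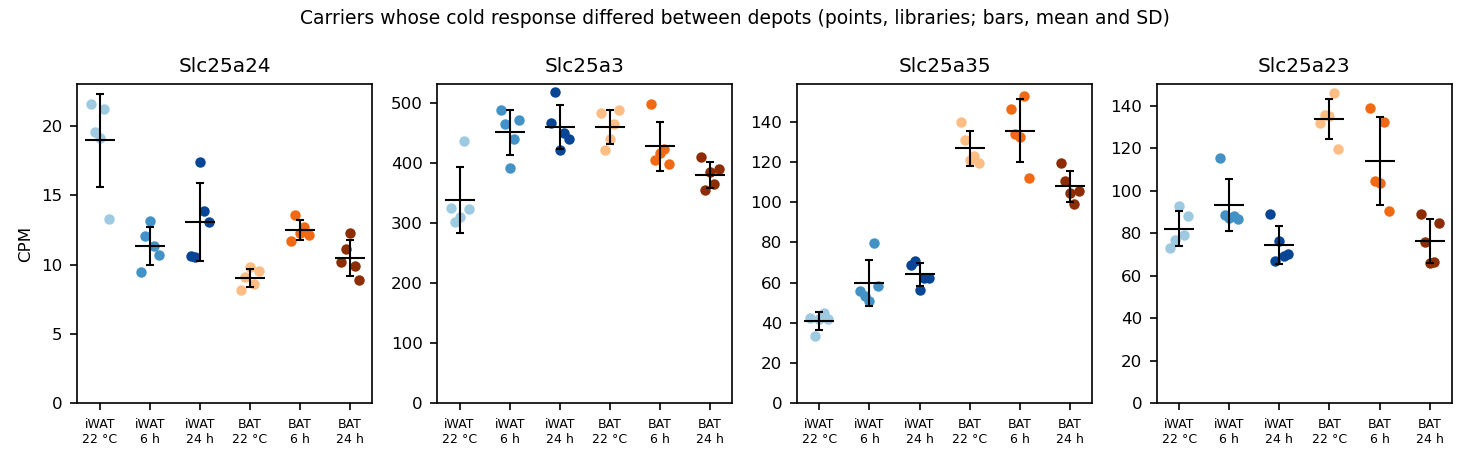
CPM of Slc25a24, Slc25a3, Slc25a35 and Slc25a23 in the 5 libraries of each group; points are libraries, and bars are mean and SD. Slc25a24 goes down in cold iWAT (19.0 to 11.4 CPM at 6 h) and up in cold BAT (9.06 to 12.5), while Slc25a3 and Slc25a35 go up in iWAT and are lower in BAT at 24 h.

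The count over all genes at 6 h was 862 without iWAT 22 °C replicate 1, 2173 without iWAT 22 °C replicate 4 and 1325 with all libraries. The count of members at 6 h was also sensitive to single libraries. It was 4 without iWAT 22 °C replicate 1, 17 without iWAT 22 °C replicate 4, 5 without iWAT 22 °C replicate 2, iWAT 6 h replicate 4, BAT 22 °C replicate 3 or 4 or BAT 6 h replicate 3, and it was 6 without iWAT 6 h replicate 5, BAT 22 °C replicate 1 or BAT 6 h replicate 2 or 5. The split at 6 h was 3 above and 4 below 0 with upper-quartile factors and 4 and 3 on the deposited FPKM, where the median of all genes stood at 0.13, and at 24 h it was 3 and 4 on FPKM, with a median of 0.10. The 6 h calls of Slc25a24, Slc25a3, Slc25a5 and Slc25a16 and the 24 h calls of Slc25a24, Slc25a3, Slc25a23, Slc25a35, Slc25a45 and Slc25a51 were kept on leaving out each library in turn. Slc25a11 lost its 6 h call without iWAT 22 °C replicate 1 (adjusted p = 0.0541). Slc25a35, Slc25a37, Slc25a45 and Slc25a51 lost theirs without any 1 of 13, 12, 13 and 15 of the 20 libraries of that comparison. At 24 h Slc25a34 lost its call without iWAT 22 °C replicate 1, 2 or 5, iWAT 24 h replicate 1 or 5, BAT 22 °C replicate 2 or 3 or BAT 24 h replicate 4 (0.0512 to 0.0735), and Slc25a48 without iWAT 22 °C replicate 1, 2 or 5, iWAT 24 h replicate 2 or 4 or BAT 22 °C replicate 3 (0.0526 to 0.0609). The scale of the values also mattered. On log2(FPKM + 1), which shrinks the change of low genes, the 24 h difference of Slc25a34 was -0.68 by limma and not called (adjusted p = 0.293), while on log2(FPKM + 0.1) it was -1.81 and called (adjusted p = 0.0428); over the alternatives that kept all libraries its adjusted p ran from 0.0145 to 0.361. Slc25a48 at 24 h (-0.55) and Slc25a16 (-0.22), Slc25a35 (-0.22) and Slc25a51 (-0.42) at 6 h also lost their calls on log2(FPKM + 1). With no filter on low counts the 6 h calls of Slc25a35, Slc25a45 and Slc25a51 were among those lost, with upper-quartile factors those of Slc25a35 and Slc25a51 were, and with the replicate block that of Slc25a51.

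Set beside BAT at 22 °C, iWAT after 24 h in the cold was still lower in 20 of 40 members and higher in 7, 67.5% against a background of 57.2% (28.5% higher in BAT, 28.8% lower). In 23 of them the libraries did not overlap as well (43.1% of all genes). On the deposited FPKM the split was 14 and 15, with a median of -0.23 for all genes. The median log2 difference (BAT minus iWAT) was 0.34 for the members and -0.02 for all genes. Slc25a34 differed by 0.54 ± 0.40 (adjusted p = 0.246) and Slc25a3 by 0.00 ± 0.09 (adjusted p = 0.995), neither of them called. The Slc25a3 value depended on scaling: on log2(FPKM + 1) it was -0.419 by limma and called lower in BAT (adjusted p = 1.298e-06). Wide gaps were those of Slc25a48 (2.49 ± 0.19), Slc25a12 (2.25 ± 0.45) and Slc25a42 (1.56 ± 0.23), higher in BAT, and Slc25a10 (-3.48 ± 0.26), Slc25a25 (-2.36 ± 0.26), Slc25a30 (-0.77 ± 0.11) and Slc25a24 (-0.53 ± 0.13), higher in iWAT. Among members under 1 CPM, Slc25a21 was also higher in iWAT (-1.96 ± 0.82). The Slc25a12 value goes with muscle sums of 283 to 9503 CPM in BAT at 22 °C and 1.84 to 6.06 CPM in iWAT at 24 h.

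Genes that import carriers into mitochondria or form channels of the outer membrane were counted beside the members. The background for all counts here is 12.9% of genes higher and 10.1% lower in iWAT at 6 h, 12.8% and 10.1% at 24 h, 12.5% and 10.2% in BAT at 6 h and 12.8% and 10.4% at 24 h. In iWAT 12 of 15 tested rose at 6 h and 11 at 24 h, and none fell, with medians of 0.53 and 0.60. Timm22, the core of the machinery that inserts carriers into the inner membrane, rose by 0.88 ± 0.16 and 0.82 ± 0.16, and Timm10, a chaperone on the way to it, by 1.06 ± 0.19 and 1.34 ± 0.19. In BAT 7 rose at 6 h, and 8 rose and 1 fell at 24 h, with Timm22 at 0.32 ± 0.09 and 0.51 ± 0.09. Of the carrier-family genes under other names, 3 of 5 rose at each time in iWAT, among them Ucp1 (3.03 ± 0.90 and 3.46 ± 0.91) and the carrier-like insertase Mtch2 (0.55 ± 0.14 and 0.68 ± 0.14). In BAT 1 of 5 rose at each time, Ucp1 at 6 h (0.50 ± 0.10) and Ucp2 at 24 h (0.90 ± 0.11). Of 17 other transporters of the inner membrane, 6 rose in iWAT at 6 h and 7 rose and 2 fell at 24 h, with the pyruvate carrier subunits Mpc1 (0.84 ± 0.22) and Mpc2 (1.05 ± 0.22) among those that rose at 24 h. In BAT none of the 17 rose and 6 fell at 6 h, among them Mcu, the pore of the calcium uniporter (-0.33 ± 0.09), and 4 rose and 2 fell at 24 h.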

How the data were processed

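Poly(A) RNA libraries were prepared with NEBNext Ultra II, per the labels' protocols. HISAT2, HTSeq and GRCm39 are named in the submitters' processing notes, and versions, roles and the handling of strand are not given in the sources used here, so reads of overlapping and antisense genes cannot be told apart. The authors deposited whole-number counts per gene and FPKM, and each deposited FPKM equals the count over gene length and column total, with no correction for RNA composition. The members and lists were chosen with earlier results of these data known.

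Counts were tested with edgeR 4.0.16 in R 4.3.3 (filterByExpr with a minimum count of 10, TMM factors, quasi-likelihood F test, Benjamini-Hochberg adjustment over all genes, threshold 0.05). Fits used the 15 libraries of a tissue, or all 30 for comparisons between tissues. The SE is the size of the log2 fold change over the square root of F and is approximate. CPM use the TMM factors of the 30-library fit. DESeq2 1.42.0 and limma 3.58.1, on log2(FPKM + 1) and log2(FPKM + 0.1), were alternatives. Values were named for 26 listed members and, in each comparison, for the 4 called members with the largest rise and the 4 with the largest fall among those whose group mean reached 1 CPM. The rule for printing every library took members among those whose groups do not overlap in a cold comparison, plus Slc25a4 and Slc25a5. Other members' values, and those of Slc25a25 by library, were chosen after they were seen. On simulated counts for iWAT, with 200 genes changed, the test recovered 85% at a log2 change of 1 and 92% at 2 (13556 genes), and for BAT 79% and 91% (12984 genes). False calls were 7 of 184 in iWAT and 4 of 174 in BAT. Changes smaller than a log2 of 1 were not simulated. No 2 libraries of a group agreed within counting noise. The values of 1 member are not reported here, though counts over all members include it.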

Additional observations from a re-analysis of the deposited data

Results flagged for a closer look

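In 14 of 186 checks of a member in a group of 5 libraries, 1 library stood far from the other 4 (chance gives about 1 in 20). Among iWAT libraries at 22 °C, replicate 4 was high for Slc25a3 (436 CPM, others 302 to 325) and Slc25a39 (147, others 78.9 to 86.9). Replicate 2 was high for Slc25a12 (14.9, others 4.37 to 5.80) and low for Slc25a35 (33.6, others 42.0 to 45.0). After 6 h in iWAT, replicate 1 was high for Slc25a10 (580 CPM, others 258 to 327) and Slc25a23 (115, others 86.8 to 88.7), and replicate 4 for Slc25a35 (79.6, others 51.0 to 58.6). After 24 h in iWAT, replicate 3 was high for Slc25a37 (28.4, others 17.9 to 19.6). In BAT after 6 h, replicate 1 was high for Slc25a3 (498, others 398 to 423) and replicate 3 for Slc25a45 (8.48, others 5.82 to 6.52). In BAT after 24 h, replicate 5 was high for Slc25a13 (0.619, others 0.0931 to 0.204) and low for Slc25a48 (36.1, others 39.7 to 40.5), replicate 2 was high for Slc25a32 (103, others 80.3 to 81.7) and replicate 1 for Slc25a39 (528, others 407 to 441).

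The cold response differed between the tissues (BAT minus iWAT, log2, edgeR interaction) in 17 instances given here. At 6 h the differences were -0.52 for Slc25a3, -0.63 for Slc25a5, -0.61 for Slc25a11, -0.44 for Slc25a16, 1.20 for Slc25a24, -0.44 for Slc25a35, 0.56 for Slc25a37, 0.64 for Slc25a45 and -0.67 for Slc25a51. At 24 h they were -0.71 for Slc25a3, -0.67 for Slc25a23, 0.74 for Slc25a24, -2.06 for Slc25a34, -0.88 for Slc25a35, 0.89 for Slc25a45, -0.92 for Slc25a48 and -0.86 for Slc25a51.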

How the results depend on the processing

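Of 135 called results of named members, 100 kept their call on leaving out each library in turn and 87 under every alternative run. Counts of members called stayed within 1.5 times the reported count under DESeq2, other scaling factors, FPKM with limma and a fit of the 2 groups only, in the comparisons where each was run. Exceptions were 12 in iWAT at 6 h with the muscle covariate, chosen after seeing the data, and 6 for the tissue difference at 6 h with no filter on low counts. The cause was not tested. Leaving out 1 library gave 12 to 21 in iWAT at 6 h, 13 to 21 at 24 h, 0 to 0 between 24 h and 6 h, 6 to 11 in BAT at 6 h, 13 to 15 at 24 h and 3 to 7 between the times. It gave 29 to 32 for BAT against iWAT at 22 °C, 24 to 27 for BAT at 22 °C against iWAT at 24 h, and 4 to 17 and 6 to 13 for the tissue difference at 6 h and 24 h. Counts over all genes moved as well. Their lowest values at 6 h were 1525 in iWAT (3148 with all libraries), 2274 in BAT (2967) and 862 for the tissue difference (1325).

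Signs reversed only between tissues, with limma on log2(FPKM + 1), on log2(FPKM + 0.1) and on log2(FPKM + 1) with no filter. Against iWAT at 22 °C the values were -0.15, -0.152 and -0.15 for Slc25a3, -0.085, -0.089 and -0.085 for Slc25a16, -0.26, -0.287 and -0.26 for Slc25a28, -0.027, -0.03 and -0.027 for Slc25a36 and -0.426, -0.503 and -0.426 for Slc25a38. Against iWAT at 24 h they were -0.419, -0.423 and -0.419 for Slc25a3, -0.098, -0.098 and -0.098 for Slc25a5, -0.262, -0.29 and -0.262 for Slc25a28, -0.346, -0.41 and -0.346 for Slc25a38 and -0.077, -0.08 and -0.077 for Slc25a46. On log2(FPKM + 1) Slc25a3, Slc25a28 and Slc25a38 were called lower in BAT against iWAT at 22 °C (limma, adjusted p = 0.0280, 0.00106 and 4.525e-05). Against iWAT at 24 h these 3 were called lower as well (1.298e-06, 0.00128 and 0.000690). The reversed values of Slc25a16, Slc25a36, Slc25a5 and Slc25a46 were not called. A further 227 sign changes among 6536 values had neither value called and are not counted as reversed.

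Whether replicate numbers pair the libraries could not be decided, because only same-numbered libraries were compared. Their deviations correlated at -0.573 to 0.622 in BAT (8 of 15 over 0.1) and -0.425 to 0.435 in iWAT (4 of 15). Across tissues they did so at -0.624 to 0.472 (8 of 15). Medians were 0.147 in BAT, -0.007 in iWAT and 0.113 across tissues. With the replicate block the counts were 17 and 19 in iWAT at 6 h and 24 h, 0 between them, 10, 15 and 7 in BAT, 32 between tissues at 22 °C, and 13 and 11 for the tissue difference. BAT at 22 °C against iWAT at 24 h was not fitted with the block.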
